A study of Mus musculus with 2 samples.

Results

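The isthmic organizer genes examined here were 9 genes: the homeobox genes En1 and En2, the paired-box genes Pax2, Pax5 and Pax8, the fibroblast growth factor genes Fgf8 and Fgf17, the canopy gene Cnpy1, and the long noncoding RNA gene 2610027F03Rik. They were picked by symbol from the 55416 features of the deposited count matrices, and each matched 1 feature. Earlier results of these same data, the ratios of the 2 libraries included, were known when the list was made, so those ratios are a description and carry no test. Nuclei entered the analysis when at least 500 genes were detected and at most 5% of the counts came from mitochondrially encoded genes, which left 13366 of 20574 barcodes.

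The study profiled single nuclei from fetal mouse brain, wildtype or knocked out for Cav1, the gene for caveolin 1, a membrane protein that forms small pits of the plasma membrane. There was 1 library of whole brain from each genotype, and the labels give no fetal day, sex, strain or number of animals. Frozen tissue was homogenised, nuclei were collected through a sucrose cushion, and RNA was counted near its 3′ end on a droplet platform by unique molecular identifiers (UMIs), which count each captured molecule once. Since 1 library per genotype gives no replicate spread, the differences below have no replicate check. All intervals are exact 95% intervals and cover counting error only.

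The isthmic organizer is a signalling centre at the constriction between midbrain and hindbrain in the early embryo. Cells there secrete Fgf8 and related ligands, which pattern the tectum in front and the cerebellum behind, and they express Pax2, Pax5, Pax8 and the Engrailed genes, which sustain one another and the ligand. Later in development the same transcription factors mark neurons of the midbrain, cerebellum and hindbrain, and Pax2 and Pax8 are well known in inhibitory interneurons of the hindbrain and spinal cord, so that a transcript of one of them in a late fetal nucleus does not by itself place that nucleus at the isthmus.

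Positions were taken from GENCODE release M39 on GRCm39, the build that the submitters' processing notes name. The members En1 and 2610027F03Rik are neighbours on chromosome 1, both on its plus strand (120530108 to 120535721 and 120542086 to 120618133), with 6364 bases between them. En2 (chromosome 5, plus strand, 28370689 to 28377195) and Cnpy1 (chromosome 5, minus strand, 28405683 to 28450804) face each other across 28487 bases. Chromosome 19 carries Pax2 (plus strand, 44735057 to 44826703) and Fgf8 (minus strand, 45725237 to 45731354). Pax5 is on chromosome 4 (minus strand, 44524757 to 44710487), Pax8 on chromosome 2 (minus strand, 24309418 to 24365617) and Fgf17 on chromosome 14 (minus strand, 70873643 to 70879763).

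The 250 bases before the annotated start are shown for En1, 2610027F03Rik and Cnpy1, because these genes were often detected in the same nuclei. They are printed 5′ to 3′ on the strand of the gene, and capitals mark a match to CCGGAA on either strand, a core bound by ETS factors, the family through which FGF signals act on genes. The windows were read from chr1:120529858-120530107 (plus) for En1, chr1:120541836-120542085 (plus) for 2610027F03Rik and chr5:28450805-28451054 (minus) for Cnpy1, all in GRCm39.
En1: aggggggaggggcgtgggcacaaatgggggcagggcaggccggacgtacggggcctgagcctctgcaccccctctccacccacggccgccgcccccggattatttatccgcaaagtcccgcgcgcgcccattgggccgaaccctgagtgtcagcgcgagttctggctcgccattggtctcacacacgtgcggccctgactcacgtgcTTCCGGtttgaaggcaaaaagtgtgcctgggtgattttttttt
2610027F03Rik: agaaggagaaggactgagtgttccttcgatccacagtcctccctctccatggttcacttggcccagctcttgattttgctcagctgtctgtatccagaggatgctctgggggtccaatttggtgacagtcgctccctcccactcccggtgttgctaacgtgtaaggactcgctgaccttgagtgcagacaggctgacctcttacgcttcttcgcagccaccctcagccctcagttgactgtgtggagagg
Cnpy1: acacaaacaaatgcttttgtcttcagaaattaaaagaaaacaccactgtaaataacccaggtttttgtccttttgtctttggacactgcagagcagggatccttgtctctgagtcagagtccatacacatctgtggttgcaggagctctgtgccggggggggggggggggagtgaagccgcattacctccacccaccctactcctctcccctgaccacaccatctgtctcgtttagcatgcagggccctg
The En1 window held 21 CpG dinucleotides with 64% G and C, against 3 with 51.6% for Cnpy1 and 7 with 55.6% for 2610027F03Rik. The median over 54652 such windows was 4, and the central 90% reached from 0 to 25. Of these 3 windows, that of En1 alone had a match to CCGGAA, which 8.20% of all windows held. None of the 3 had a match to TAATTA, a core bound by homeodomain proteins such as Engrailed, searched on both strands, which 6.18% of all windows held. These windows are annotation only: the En1 window overlaps an exon of Gm69561 and that of 2610027F03Rik an exon of Gm34352, and the counts do not show where transcription began.

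Of 9763 wildtype-labelled barcodes 6686 were kept, with 17205381 UMIs, and of 10811 knockout-labelled barcodes 6680, with 19878903 UMIs. The median nucleus held 2133.5 and 2366 UMIs. The targeted gene did not separate the libraries in total: 71 Cav1 UMIs were counted in the former and 80 in the latter, a log2 ratio of −0.04 (−0.52 to 0.45), so the libraries are called by their labels throughout. A 3′ count cannot tell an intact Cav1 transcript from one that lacks exons further upstream. Cav2 did separate them, with 19 wildtype-labelled UMIs against 764 knockout-labelled ones, a log2 ratio of 5.12 (4.47 to 5.86). The cause of the Cav2 difference was not tested. The libraries shared 43 barcode sequences, 10 of them among kept nuclei of both. Hox genes, which mark hindbrain and spinal cord behind the isthmus, differed strongly: Hoxa2, Hoxb2, Hoxa3, Hoxb3 and Hoxd3 together gave 3 wildtype-labelled UMIs against 326 knockout-labelled ones, and 4 of the 5 were at 0 in the former. The forebrain genes Emx2, Emx1 and Lhx2 were slightly lower in the knockout-labelled library, with log2 ratios of −0.33 (−0.53 to −0.13), −0.26 (−0.49 to −0.02) and −0.26 (−0.36 to −0.16), and Six3 had 0.00 (−0.24 to 0.25). Their part in the results on the members was not tested, and tissue content and genotype cannot be told apart with 1 library each.

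Over all kept nuclei, 6 of the 9 members had a knockout-labelled level at least 2-fold the wildtype-labelled one, and 0 were lower by as much. Among all 21131 genes with at least 20 UMIs, 1.92% were at least 2-fold higher and 0.928% at least 2-fold lower. Among genes with 20 to 500 UMIs, the range of the members, these were 3.54% and 1.73%. The counting intervals of 7 members lay above 0 and those of Fgf8 and Fgf17 included it. The median log2 ratio of the 9 members was 1.62, against −0.01 over all these genes. Levels are given as CPM, counts per 1000000 UMIs of the library or cluster, and a lower sum can come from fewer nuclei that express a gene or from less RNA in each, which sums cannot tell apart.

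**Figure D1:**
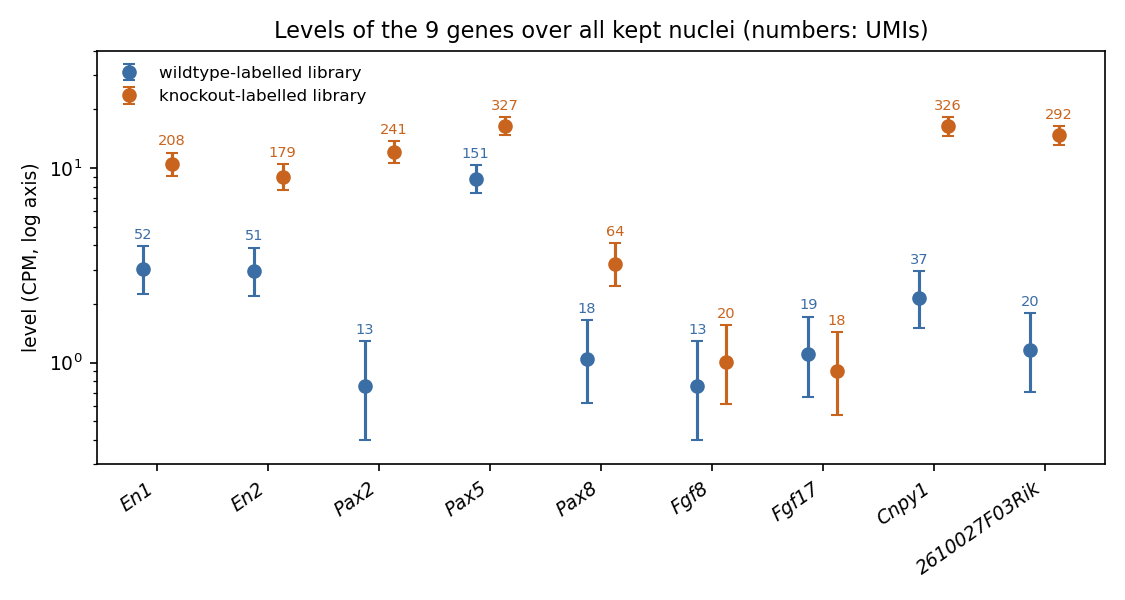
Level of each member in CPM (log axis) over all kept nuclei of the wildtype-labelled (blue) and knockout-labelled (orange) library, with exact 95% Poisson intervals and the UMI counts as numbers. The intervals of the libraries do not overlap for En1, En2, Pax2, Pax5, Pax8, Cnpy1 and 2610027F03Rik, and they overlap for Fgf8 and Fgf17.

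The Engrailed genes encode homeodomain repressors of the midbrain and anterior hindbrain. En1 had 52 wildtype-labelled UMIs and 208 knockout-labelled UMIs, 3.02 CPM (2.26 to 3.96) against 10.5 CPM (9.09 to 12.0). Its log2 ratio was 1.79 (1.35 to 2.26). En2 showed a like difference, at 51 and 179 UMIs, 2.96 CPM (2.21 to 3.90) against 9.0 CPM (7.73 to 10.4) and a log2 ratio of 1.60 (1.15 to 2.08).

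Most En1 and En2 detections were single molecules. An En1 UMI was found in 0.703% of wildtype-labelled nuclei (0.517% to 0.934%) and 2.57% of knockout-labelled nuclei (2.21% to 2.98%), and 28 of the 172 positive knockout-labelled nuclei held more than 1. For En2 the shares were 0.748% and 2.5%, and 10 of 167 positive nuclei held more than 1. As a level of free RNA, the share was also taken in cortical excitatory neuron-like nuclei, a class that should lack both genes, whose median depths were 2191.5 and 2376 UMIs. In those nuclei En1 was found in 0.510% (8 of 1568) and 1.07% (12 of 1117), and En2 in 0.255% and 0.985%. The wildtype-labelled En1 share thus lay near its background, within the upper bound of 1.00% that the cortical count allows. After each nucleus was thinned to 1000 UMIs, which left out 846 and 1111 shallower nuclei, the En1 shares were 0.257% and 0.952% and the En2 shares 0.171% and 1.13%.

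The Pax2/5/8 genes encode closely related paired-domain transcription factors, which act early in setting up the isthmus. Pax2 had the largest ratio of the 9 members. It gave 13 UMIs in 9 wildtype-labelled nuclei and 241 UMIs in 90 knockout-labelled nuclei, 0.756 CPM (0.402 to 1.29) against 12.1 CPM (10.6 to 13.8). The log2 ratio was 4.0 (3.20 to 4.93), rank 27 from the top of 21131 genes. Positive knockout-labelled nuclei held up to 12 Pax2 UMIs and 19 of them at least 5, whereas the highest wildtype-labelled nucleus held 3.

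Pax5 differed less and was carried by few nuclei in both libraries. It had 151 UMIs in 73 wildtype-labelled nuclei and 327 in 152 knockout-labelled nuclei, 8.78 CPM (7.43 to 10.3) against 16.4 CPM (14.7 to 18.3), a log2 ratio of 0.91 (0.62 to 1.19). Single nuclei reached 16 and 18 UMIs, and the 10 highest held 65 of the 151 and 103 of the 327. Pax8 had 18 UMIs in 13 nuclei against 64 in 37 nuclei, 1.05 CPM (0.620 to 1.65) against 3.22 CPM (2.48 to 4.11), with a log2 ratio of 1.62 (0.85 to 2.46). The cortical background shares were 0.0638% and 0.537% for Pax2 and 0.446% and 0.537% for Pax5. The knockout-labelled shares came from 11 Pax2 UMIs in 6 nuclei and 6 Pax5 UMIs in 6 nuclei. Some of these nuclei thus held more than 1 Pax2 UMI, and whether these were free RNA was not tested. For Pax8 they were 0 of 1568 nuclei, which allows a share of up to 0.191% with 3 counts as the floor for a count of 0, used throughout, and 0.0895%.

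The ligands of the organizer were scarce, and neither differed between the libraries beyond counting error. Fgf8, the ligand that can induce an isthmus when placed in other tissue, had 13 UMIs in 12 nuclei against 20 UMIs in 17 nuclei, 0.756 CPM (0.402 to 1.29) against 1.01 CPM (0.615 to 1.55). The log2 ratio was 0.41 (−0.67 to 1.54). Fgf17, a close relative expressed around it, had 19 UMIs in 18 nuclei against 18 in 17, a log2 ratio of −0.29 (−1.30 to 0.72). A 2-fold lower level of Fgf17 and a 2-fold higher level of Fgf8 lie within these intervals, so that these counts could not have shown them. No nucleus of either library held more than 2 UMIs of either ligand, and their shares in cortical excitatory neuron-like nuclei (0.191% and 0.0895% for Fgf8, 0.128% and 0.269% for Fgf17) stood beside 0.179% and 0.254% over all nuclei for Fgf8, and 0.269% and 0.254% for Fgf17. The share over all nuclei did not exceed the cortical one for Fgf8 in the wildtype-labelled library and for Fgf17 in the knockout-labelled library.

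Cnpy1 encodes a small protein of the endoplasmic reticulum, known in fish as a feedback regulator of FGF signalling at the midbrain-hindbrain boundary. It had 37 UMIs in 30 wildtype-labelled nuclei against 326 in 223 knockout-labelled nuclei, 2.15 CPM (1.51 to 2.96) against 16.4 CPM (14.7 to 18.3). The log2 ratio was 2.93 (2.44 to 3.46). The share of nuclei with a Cnpy1 UMI was 0.449% (0.303% to 0.640%) against 3.34% (2.92% to 3.80%), at a cortical background of 0.128% and 0.358%. The other canopy genes did not follow it: Cnpy2, Cnpy3 and Cnpy4 had log2 ratios between −0.23 and 0.10 with intervals that included 0.

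The noncoding gene 2610027F03Rik, downstream of En1, had 20 UMIs in 15 nuclei against 292 in 162 nuclei, 1.16 CPM (0.710 to 1.80) against 14.7 CPM (13.1 to 16.5). Its log2 ratio was 3.66 (3.01 to 4.39), rank 29 of 21131 genes, and that of its neighbour En1 ranked 81. Knockout-labelled nuclei held up to 7 of its UMIs, with at least 5 in 12 nuclei. Its cortical background was 0.128% and 0.358%. At 1000 UMIs per nucleus its shares were 0.0856% (0.0278% to 0.200%) and 1.47% (1.17% to 1.82%), next to 0.240% and 1.49% for Cnpy1.

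**Figure D2:**
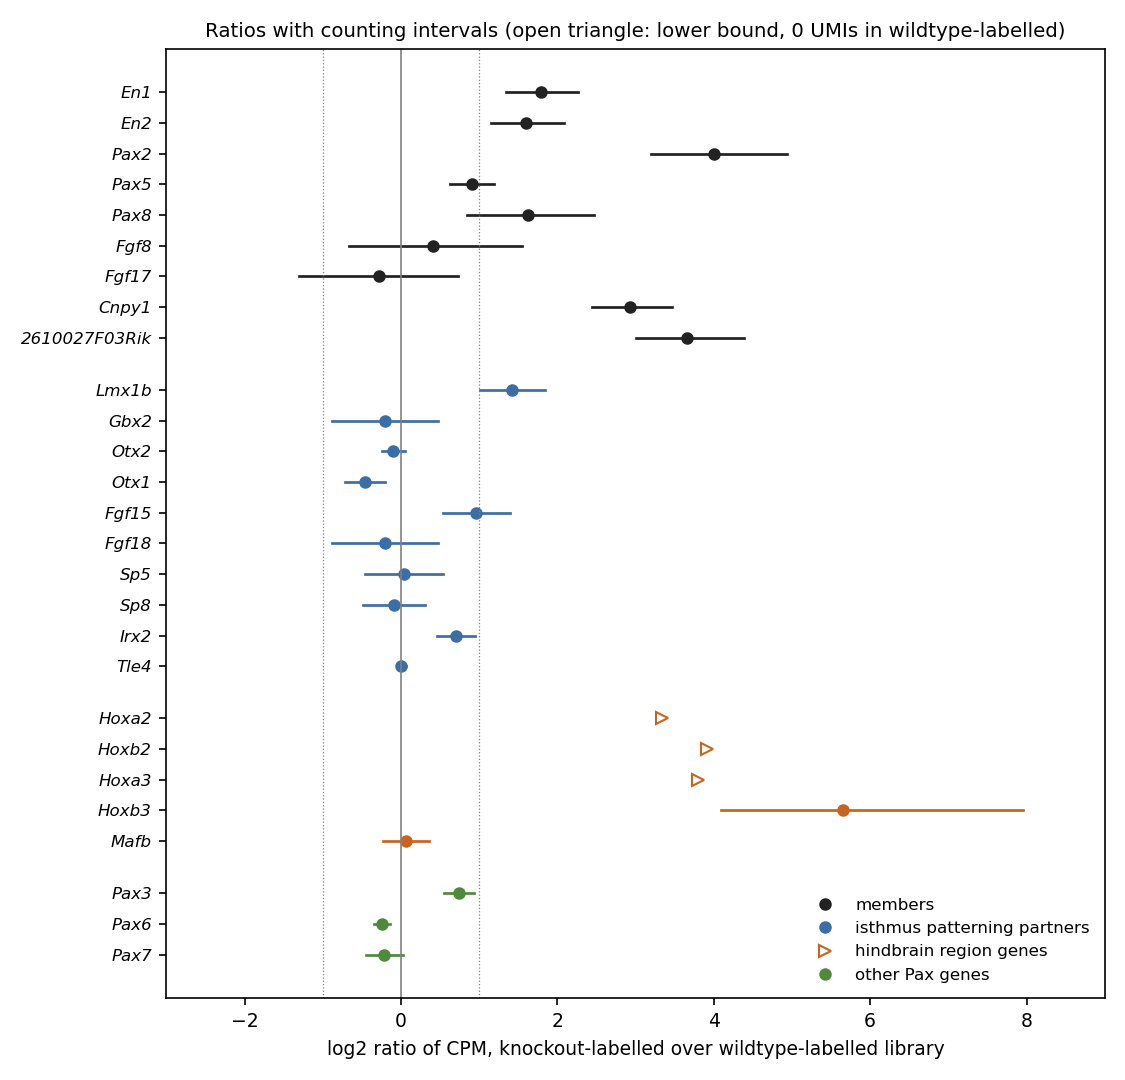
Log2 ratio of CPM, knockout-labelled over wildtype-labelled library, for the members and 3 gene lists (genes with at least 20 UMIs), with exact 95% counting intervals; open triangles are lower bounds taken with 3 UMIs in place of 0. The 7 members other than Fgf8 and Fgf17 lie above 0, 9 of the 10 isthmus partners lie under the 2-fold line at 1, and the Hox genes lie above most members.

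Flanking protein-coding genes with at least 20 UMIs stayed under the 2-fold limit, whereas some noncoding genes that overlap members did not. Of 14 flanking protein-coding genes outside the list, 12 had at least 20 UMIs and 0 of them were 2-fold higher or lower, with log2 ratios between −0.12 and 0.40. Insig2, the next protein-coding gene after En1 and 2610027F03Rik, had 666 and 768 UMIs, with a log2 ratio of 0.00 (−0.15 to 0.15). Insig1, beside En2, was higher at 0.40 (0.17 to 0.63), and Cacna1b, beside Pax8, at 0.19 (0.11 to 0.26). The intervals of the other such genes included 0. Noncoding genes that overlap Pax2 on the opposite strand had few counts in the wildtype-labelled library: Gm20395 had 2 UMIs against 44, and 1700039E22Rik had 1 against 28. Gm26644, over the start of Pax2, had 45 against 27. Gm13415, which overlaps Pax8 on the opposite strand, had 11 against 32, a log2 ratio of 1.33 (0.31 to 2.47). Whether the counting used the strand is not given in the sources used here, so reads of Pax2 or Pax8 and of these genes may be exchanged.

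Other patterning genes of the isthmus were taken as a list of 12, of which 10 had at least 20 UMIs and 1 was at least 2-fold higher. That gene was Lmx1b, a LIM homeobox gene upstream of isthmic Fgf8, with 65 UMIs against 201 and a log2 ratio of 1.42 (1.01 to 1.85). Fgf15 had a log2 ratio of 0.96 (0.54 to 1.40) and Irx2 of 0.70 (0.46 to 0.95). The genes that set the boundary from either side had intervals that included 0: Otx2, of the forebrain and midbrain, had 716 and 773 UMIs (−0.10, −0.25 to 0.05), and Gbx2, of the anterior hindbrain, 39 and 39 UMIs (−0.21, −0.89 to 0.47). Otx1 was lower, at −0.47 (−0.72 to −0.21). Wnt1, the ligand on the midbrain side, had 3 and 11 UMIs, with an interval from −0.25 to 4.15. The median of the 10 genes was −0.04.

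Genes that receive or dampen FGF signals were less than 2-fold apart. Of 16 receptors, effectors and feedback inhibitors 0 reached that limit, against 1.92% of all genes higher and 0.928% lower. A list of this size cannot be told from all genes by that count. Its median log2 ratio was 0.06. Fgfr3 was lower at −0.31 (−0.47 to −0.16), as was Flrt2 at −0.22 (−0.29 to −0.15), and Spred3 was higher at 0.37 (0.15 to 0.59). The ETS effectors Etv4 and Etv5 had log2 ratios of 0.41 (0.00 to 0.83) and −0.19 (−0.43 to 0.04), and the inhibitor Dusp6 of 0.37 (−0.12 to 0.87). Among the Pax genes outside the list, Pax3, of dorsal neural tube, was higher at 0.74 (0.55 to 0.93), while Pax6 was lower at −0.25 (−0.35 to −0.14) and Pax7 had −0.21 (−0.45 to 0.02). The 5 Hox genes, whose part in these ratios was not tested, had values beyond most members: Hoxb3 had 3 UMIs against 175 (log2 ratio 5.66, 4.09 to 7.95), Hoxb2 had 0 against 52 and was at least 15.0-fold higher, and Hoxa3 had 0 against 48, at least 13.8-fold higher, taking 3 UMIs per library as the floor.

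Nuclei of both libraries were then clustered together without the members, and 6 of the 23 clusters were singled out after their member counts were seen. The clusters were compared by number where they had no name. Cluster 0, unnamed (773 wildtype-labelled and 1207 knockout-labelled nuclei), was led by genes that include Skor2, Slc6a5, the glycine transporter of inhibitory neurons, and Onecut3. Slc6a5 was low there, at 1.82 and 13.3 CPM, beside 99.0 and 80.6 CPM of Tfap2d, an other excitatory neuron marker. Cluster 0 carried 4 dopaminergic neuron and 3 Cajal-Retzius markers, and under 3 of either inhibitory neuron list. Cluster 7, also unnamed (249 and 333 nuclei), held the deepest nuclei, with median UMI counts of 5926 and 7360, and doublets were not removed from it. Cluster 8 was other excitatory neuron-like (230 and 325 nuclei, with Tfap2d, Barhl1 and Pou4f1 among its leading genes). Cluster 11, unnamed (192 and 262 nuclei), was led by genes that include Wnt8b, Rspo1 and Rspo2 and carried 6 of 10 progenitor and 4 of 4 oligodendrocyte precursor markers. Clusters 13 (192 and 196) and 15 (208 and 149) were dividing-like and other inhibitory neuron-like. Among genes with at least 20 UMIs in a cluster, the share at least 2-fold higher in its knockout-labelled nuclei was 2.17% in cluster 0, 2.22% in 7, 4.17% in 8, 3.05% in 11, 2.46% in 13 and 2.4% in 15.

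Cluster 0 held most Pax5 and Pax8 UMIs of both libraries and most Pax2 UMIs of the knockout-labelled one. Of the 13 wildtype-labelled Pax2 UMIs, cluster 0 held 4. It gave 61.8% of the knockout-labelled Pax2 UMIs, and the Pax2 count there was 4 UMIs against 149, 1.46 CPM (0.397 to 3.73) against 30.4 CPM (25.7 to 35.7), a log2 ratio of 4.38 (3.00 to 6.28). Pax5 had 92 and 206 UMIs in the same nuclei, 33.5 CPM against 42.0 CPM, and a log2 ratio of 0.33 (−0.03 to 0.70). The interval of this Pax5 ratio included 0. Cluster 0 made up 11.6% (10.8% to 12.4%) of wildtype-labelled and 18.1% (17.2% to 19.0%) of knockout-labelled nuclei. The part of its size in the Pax5 difference was not tested. Pax8 had 10 and 40 UMIs (1.17, 0.14 to 2.33), and Cnpy1 8 and 94 (2.72, 1.68 to 3.97). Other genes were also higher within the cluster: the 5 Hox genes gave 3 and 157 UMIs, Slc6a5 gave 5 and 65, and Skor2 gave 3 and 48, and their part in the Pax2 value was not tested.

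Cluster 8 held the highest knockout-labelled levels of 2610027F03Rik and of Cnpy1 among the 6 clusters. The noncoding gene had 1 UMI in 230 wildtype-labelled nuclei and 104 UMIs in 325 knockout-labelled nuclei, 1.75 CPM (0.0442 to 9.72) against 124 CPM (102 to 151), a log2 ratio of 6.15 (3.64 to 11.47). It was found in 17.2% of the knockout-labelled nuclei of this cluster. Cnpy1 had 8 UMIs against 65, 14 CPM (6.03 to 27.5) against 77.7 CPM (60 to 99.0), and was found in 14.8% of those nuclei. En1 had 1 UMI against 25 (4.10, 1.49 to 9.46) and En2 5 against 28 (1.94, 0.55 to 3.67). Pax2 had 1 against 27, and these 27 UMIs came from 7 nuclei. Tfap2d, which marks the cluster, had 312 and 494 CPM, and the 5 Hox genes 0 and 32 UMIs.

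In dividing-like nuclei of cluster 13 neither Cnpy1 nor 2610027F03Rik was counted in the wildtype-labelled library, where 0 UMIs in 192 nuclei allow up to 8.62 CPM at the floor of 3 UMIs. The knockout-labelled library had 22 and 24 UMIs in 8 and 9 of 196 nuclei, 55.9 CPM (35 to 84.6) and 61.0 CPM (39.1 to 90.7). Against that floor these levels were at least 6.48-fold and 7.07-fold higher. The 5 Hox genes gave 0 and 2 UMIs in this cluster. Cluster 11 had Cnpy1 at 4 and 37 UMIs (2.58, 1.11 to 4.53) and 2610027F03Rik at 5 and 23 (1.57, 0.15 to 3.33). Its Hox counts were 0 and 20 UMIs.

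A minority of the scarce Fgf8 UMIs of each library lay in cluster 11. This cluster gave 5 of 13 Fgf8 UMIs in the one library and 8 of 20 in the other, 9.89 CPM (3.21 to 23.1) against 10.3 CPM (4.43 to 20.2). Both intervals lie above those of cluster 0, whose levels were 0.364 CPM (0.00921 to 2.03) and 0.408 CPM (0.0494 to 1.47). Fgf17 had 4 UMIs and 1 UMI in cluster 11, and Pax8 had 5 and 1, at levels whose intervals overlap between the libraries.

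Among these 6 clusters of the knockout-labelled library the order of levels differed by gene. For 2610027F03Rik it ran from cluster 8 over cluster 13 (61.0 CPM), cluster 11 (29.5 CPM, 18.7 to 44.2), cluster 7 (19.3 CPM, 14.9 to 24.7) and cluster 15 (18.9 CPM, 7.58 to 38.8) to cluster 0 (8.36 CPM, 6.0 to 11.3). Clusters 13 and 11, 11 and 7, 7 and 15, and 15 and 0 were neighbours with overlapping intervals, and cluster 8 lay above the rest. For Cnpy1 the intervals of clusters 8, 13 and 11 overlapped, and cluster 0 (19.2 CPM, 15.5 to 23.5) lay below all 3. Pax5 was highest in clusters 0 (42.0 CPM, 36.5 to 48.2) and 15 (35 CPM, 18.6 to 59.9), whose intervals overlap. Pax2 was highest in clusters 8 (32.3 CPM, 21.3 to 46.9) and 0, which overlap, and had 0 UMIs in clusters 13 and 15. Outside the 6, the small cluster 20 reached 68.6 CPM of Pax2 from 7 UMIs. En1 and En2 were highest in cluster 8, at 29.9 CPM (19.3 to 44.1) and 33.5 CPM (22.2 to 48.4).

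**Figure D3:**
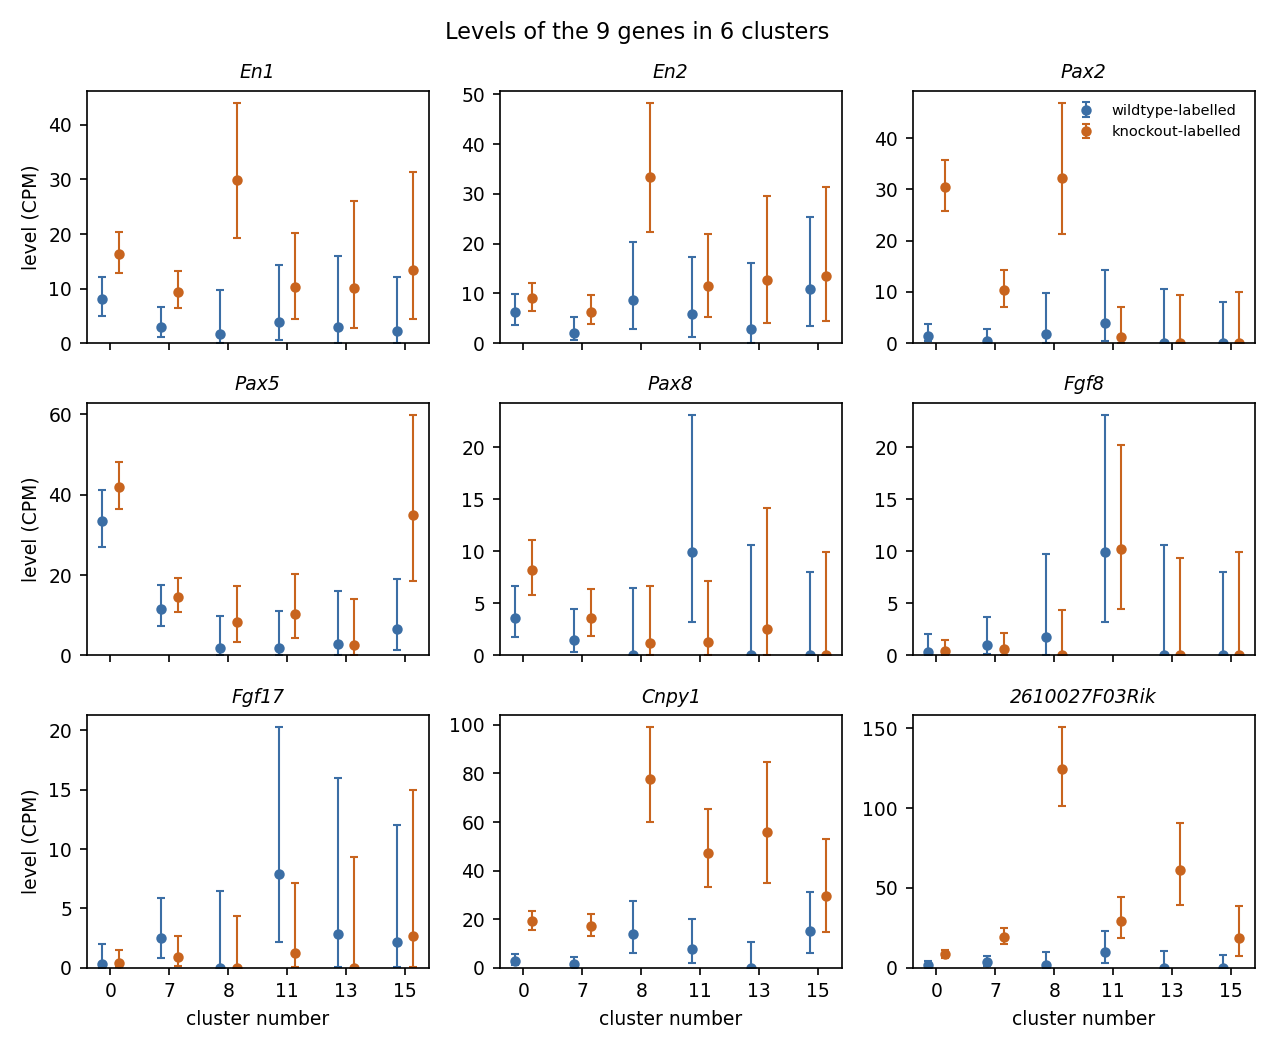
Level of each member in CPM (linear axis, a scale of its own in each panel) in clusters 0, 7, 8, 11, 13 and 15, for the wildtype-labelled (blue) and knockout-labelled (orange) library, with exact 95% Poisson intervals. Pax5 lies at like levels in both libraries in cluster 0 (33.5 and 42.0 CPM), whereas 2610027F03Rik in cluster 8 (1.75 and 124 CPM) and Pax2 in cluster 0 (1.46 and 30.4 CPM) do not overlap between them.

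Sums were also set side by side with the share that cluster sizes alone would give, a comparison added after the cluster values were seen. With the wildtype-labelled level kept in every cluster and the knockout-labelled library's share of UMIs per cluster, Cnpy1 would have reached 2.44 CPM, against a wildtype-labelled 2.15 and a knockout-labelled 16.4 CPM. The same sum gave 0.952 CPM for Pax2 (0.756 and 12.1), 1.58 CPM for 2610027F03Rik (1.16 and 14.7) and 3.69 CPM for En1 (3.02 and 10.5). For Pax5 it was 12.0 CPM, between 8.78 and 16.4 CPM. A cluster is wider than 1 cell type, so a different mix of cells inside a cluster and a different level per cell cannot be told apart here. These sums were made at Leiden resolution 1 only, and finer clusters at resolution 2 differed in size in both directions. One led by genes that include Pax3 had 59 wildtype-labelled and 184 knockout-labelled nuclei, and one with Car8 39 and 171. Another, with Pou4f1 and Barhl2, had 160 and 110. Their part in the member levels was not tested.

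Members were next counted nucleus by nucleus. At least 1 member was detected in 221 wildtype-labelled nuclei (3.31%, 2.89% to 3.76%) and 756 knockout-labelled nuclei (11.3%, 10.6% to 12.1%). At least 2 different members were detected in 32 nuclei (0.479%, 0.328% to 0.675%) and 191 nuclei (2.86%, 2.47% to 3.29%), and the highest number in 1 nucleus was 4 and 6. Nuclei with at least 2 members were deep, with median UMI counts of 4347 and 4058. At 1000 UMIs per nucleus they numbered 4 of 5840 (0.0685%) and 54 of 5569 (0.970%).

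Of the 32 wildtype-labelled nuclei with at least 2 members, 18 lay in cluster 0, 8 in cluster 7, 4 in cluster 11 and 2 in cluster 8. Of the 191 knockout-labelled nuclei, 67 lay in cluster 0, 44 in cluster 8, 37 in cluster 7, 15 in cluster 11, 8 in cluster 13 and 7 in cluster 15. As a share of the cluster, they made up 0.870% (0.105% to 3.11%) and 13.5% (10.0% to 17.7%) of cluster 8, and 2.33% and 5.55% of cluster 0. Clusters 1 and 2, the next in size after cluster 0 over both libraries together, held 0 such nuclei in both libraries. Cluster 3, the next in size in the knockout-labelled library with 723 nuclei, held 0 and 2.

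The pair detected together most often was Cnpy1 with 2610027F03Rik, which lie on different chromosomes. Both were found in 70 knockout-labelled nuclei, where the product of the 2 shares gives 5.41 nuclei, so that the observed number was 12.9 times the product. The product was taken over all kept nuclei of the library. Any 2 genes that lie mostly in the same clusters exceed it, and no product was taken within clusters. These 70 nuclei were 31.4% of those with Cnpy1 and 43.2% (35.5% to 51.2%) of those with 2610027F03Rik. At 1000 UMIs per nucleus they were 20 against a product of 1.22. In the wildtype-labelled library 2 nuclei held both.

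The neighbours on a chromosome were also found together. En1 with 2610027F03Rik was found in 36 knockout-labelled nuclei (product 4.17), and En2 with Cnpy1 in 32 (product 5.58). Pairs across chromosomes had like numbers: En1 with Cnpy1 was found in 39 nuclei (product 5.74), and En2 with 2610027F03Rik in 32 (product 4.05). En1 and En2 shared 18 nuclei (product 4.30). The pairs on one chromosome and the pairs across chromosomes thus had overlapping ranges.

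Within the Pax family the closest pair was Pax5 with Pax8. They were found together in 11 wildtype-labelled nuclei, which is 84.6% of the 13 nuclei with Pax8, and in 14 knockout-labelled nuclei, which is 37.8% (22.5% to 55.2%) of 37. Pax2 and Pax8 shared 8 knockout-labelled nuclei (product 0.50) and 2 wildtype-labelled ones. Pax2 and Pax5 shared 9 (product 2.05), so that 81 of the 90 Pax2 nuclei had no Pax5 UMI. Fgf8 and Fgf17 shared 1 nucleus in each library. Fgf8 shared 1 wildtype-labelled nucleus each with Pax2, Pax5 and Pax8, and 0 knockout-labelled ones with any of the 3, where the products were 0.23, 0.39 and 0.094. With En1, En2, Cnpy1 and 2610027F03Rik it shared 1 knockout-labelled nucleus each. Of the 16 knockout-labelled pairs with a product of at least 1, 15 were found at least 2 times as often as the product, the exception being En2 with Pax2 (3 nuclei, product 2.25). Deep nuclei enter all of these numbers, since a deep nucleus has more chance to show both genes of any pair. Clusters enter them too, since members that share a cluster exceed a product taken over all nuclei. These numbers therefore do not show whether members fall together within a cluster.

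**Figure D4:**
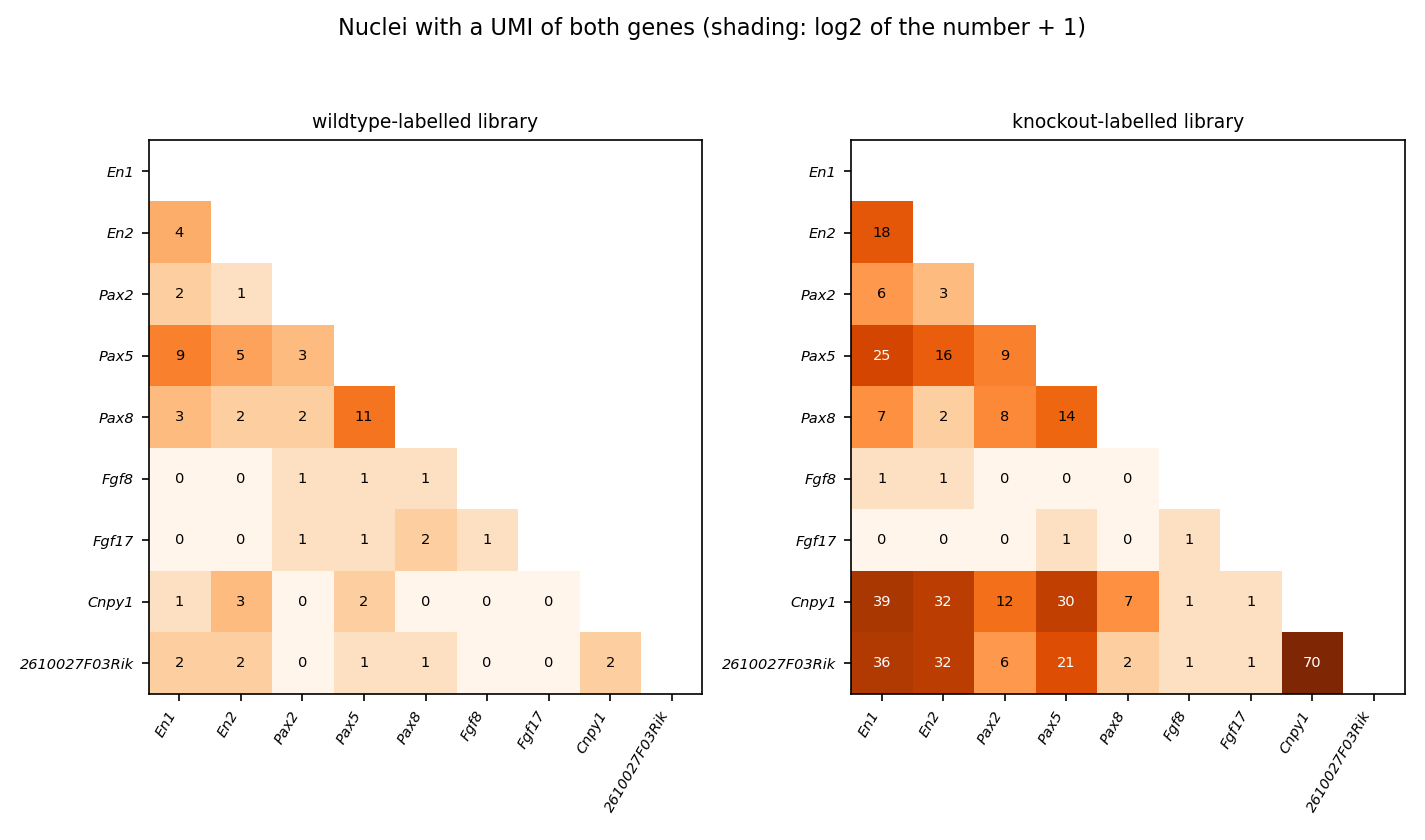
Number of nuclei with a UMI of both genes for each of the 36 pairs of members, in the wildtype-labelled (left) and knockout-labelled (right) library, with darker shading for higher numbers. The highest cells are Pax5 with Pax8 (11 nuclei) on the left and Cnpy1 with 2610027F03Rik (70 nuclei) on the right.

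Progenitor markers (Vim, Hes1, Hes5, Fabp7, Slc1a3, Pax6, Nes, Sox2, Notch1 and Sox9) were then counted in the nuclei with members, with at least 3 of the 10 as the criterion. In the knockout-labelled library 37.7% (31.3% to 44.4%) of nuclei with Cnpy1 and 35.8% (28.4% to 43.7%) of those with 2610027F03Rik met it, against 23.1% of all nuclei. In the wildtype-labelled library 20.0% (7.71% to 38.6%) of nuclei with Cnpy1 met it, against 20.5% of all. Nuclei with members were deeper, however, at a median of 3666 UMIs for Cnpy1. When members were called at full depth and markers after thinning to 1000 UMIs, a comparison added after the first was seen, 6.05% (3.26% to 10.1%) of knockout-labelled nuclei with Cnpy1 and 5.93% of all nuclei met it. At equal depth the share of progenitor-marked nuclei among Cnpy1 nuclei thus lay within counting error of the share among all.

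The dividing and general neuron markers were counted in the same way at equal depth. Among nuclei with 2610027F03Rik, 8.33% (4.51% to 13.8%) had at least 3 dividing markers, against 2.84% (2.42% to 3.31%) of all knockout-labelled nuclei. Pax2 nuclei included 0 of 84 such nuclei, which allows up to 3.57%, so that a share like that of all nuclei lies within the limit. General neuron markers were found at least 3 at a time in 61.9% (50.7% to 72.3%) of Pax2 nuclei, 47.7% of all nuclei and 34.0% (27.7% to 40.7%) of Cnpy1 nuclei.

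The nuclei with Pax2 also differed in transmitter and region genes, which were chosen for this count after the clusters were seen. After thinning to 1000 UMIs, Slc6a5 was found in 10.7% (5.02% to 19.4%) of knockout-labelled Pax2 nuclei against 0.377% (0.234% to 0.576%) of all, and Gad1 or Gad2, the enzymes that make GABA, in 35.7% (25.6% to 46.9%) against 20.8%. One of the 5 Hox genes was found in 8.33% (3.42% to 16.4%) of Pax2 nuclei against 1.36% (1.08% to 1.71%) of all. Nuclei with 2610027F03Rik had none of these Hox UMIs in 156 nuclei (which allows up to 1.92%), and Cnpy1 nuclei had them in 1 of 215. Otx2 showed the other pattern, with 13.5% (8.53% to 19.8%) of 2610027F03Rik nuclei against 3.47% of all and 1.19% (0.0301% to 6.46%) of Pax2 nuclei. Pax5 nuclei held one of Tal1, Tal2, Gata2 or Gata3, factors of midbrain and hindbrain inhibitory neurons, in 10.1% (5.66% to 16.4%) against 2.86% of all.

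Other genes were ranked by their likeness to the members, measured in each library as the ratio of CPM in nuclei with at least 2 members to CPM in the rest. Of 8937 genes with at least 20 UMIs in such nuclei of both libraries together, and at least 3 in each, 33 (0.369%) were at least 2-fold higher in both libraries. The first 2 were Gm13415, antisense to Pax8, and Gm12462, antisense to Pax5, which overlap members and may share reads with them. The next were 9030622O22Rik, with log2 ratios of 3.30 (2.35 to 4.12) and 3.53 (3.06 to 4.01) in the wildtype-labelled and knockout-labelled library, and 1700042O10Rik, with 3.11 (1.74 to 4.22) and 2.10 (1.5 to 2.67). Klhl14 followed with 2.94 (1.01 to 4.39) and 2.10 (1.45 to 2.71), and the noncoding Otx2os1, beside Otx2, had 1.73 (1.39 to 2.05) and 1.83 (1.68 to 1.97). The remaining of the first 12 were 4930438E09Rik, 4921518K17Rik, Gm534, Cdh23, Gm6878 and Gm11739. In total over all kept nuclei, 9030622O22Rik had 135 and 154 UMIs (log2 ratio −0.02) and Otx2os1 2361 and 2297 (−0.25), whereas Klhl14 had 52 and 123 (1.03) and 4930438E09Rik 546 and 1345 (1.09).

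Among listed genes, nuclei with at least 2 members in the knockout-labelled library had higher levels of Pax7 (log2 ratio 1.60, 1.15 to 2.03), Pax3 (1.37, 1.05 to 1.67), Tal2 (2.88, 1.97 to 3.74), Lmx1b (0.98, 0.32 to 1.59) and Otx2 (0.98, 0.66 to 1.29) than the rest of that library. Gata3, Tal1, Lmx1a, Otx2 and Fgfr2 had intervals above 0 in both libraries. Otx2 had 0.98 (0.14 to 1.71) in the wildtype-labelled library. Fgfr2 had 0.32 (0.12 to 0.53) in the wildtype-labelled and 0.17 (0.09 to 0.25) in the knockout-labelled library. The log2 ratios of Gata3, Tal1 and Lmx1a were 2.12, 1.76 and 2.12 in the wildtype-labelled and 0.93, 1.43 and 0.93 in the knockout-labelled library. Of the 10 progenitor markers, 3 were lower: Vim at −0.72, Fabp7, a gene of radial glia, at −1.09 (−1.26 to −0.93), and Sox2 at −1.26 (−2.03 to −0.59). Hoxb3 was lower too, at −1.29 (−2.93 to −0.04). The other 7 progenitor markers had intervals that included 0. Of the general neuron markers, Tubb3 (−0.77), Elavl3 (−0.29), Stmn2 (−0.27) and Dcx (−0.26) were lower, with intervals below 0. Syt1 was higher at 0.12 (0.02 to 0.21), and the intervals of Map2, Rbfox3 and Snap25 included 0. At least 3 general neuron markers at 1000 UMIs were found in 33.5% (26.8% to 40.7%) of these nuclei against 47.7% of all. At least 3 progenitor markers were found in 35.1% of these nuclei against 23.1% of all at full depth, and in 4.26% (1.85% to 8.21%) against 5.93% when the markers were counted at 1000 UMIs. With 32 wildtype-labelled nuclei the same comparison there gave 81.3 CPM of Otx2 against 41.2, 5.42 CPM of Pax3 against 20.3 and 16.3 CPM of Pax7 against 17.6, and Tal2 and Lmx1b had 0 UMIs in these 32 nuclei.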

How the data were processed

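Single-nucleus libraries of fetal mouse brain, 1 wildtype and 1 Cav1 knockout, were analysed from the deposited matrices of raw UMI counts per gene and barcode. Per the file headers the authors made the counts with Cell Ranger 6.1.1, while the submitters' processing notes name Cell Ranger 3.0.1, STAR and GRCm39. Annotation release, strand and intron handling are not given in the sources used here. No deposited barcode held under 500 UMIs.

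The members and gene lists were chosen with earlier results of these data known. The genes named are the 9 members, the fixed lists, the neighbours of members and the 12 genes most like them by the ratio of CPM. UMIs were summed over kept nuclei, with exact Poisson, binomial and conditional binomial intervals (scipy 1.17.1), and no test was made. Cav1 and Cav2 are named besides these genes. A fold against 0 takes 3 UMIs as the floor. Thinning drew 1000 UMIs per nucleus. The interval of the ratio was tested on simulated data.

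Nuclei were clustered with scanpy 1.11.5 (10000-UMI scaling, 2000 variable genes per library, 30 components, 15 neighbours, Leiden resolution 1). The members, Cav1, the mitochondrial genes and the sex-linked genes Xist, Tsix, Ddx3y, Eif2s3y, Kdm5d and Uty were no part of the variable genes. Clusters were named from fixed markers by a rule tightened after the first names went against leading genes. It asks for at least 3 markers at 2-fold and a marker among the leading genes, and the names are not the authors' own. Scrublet marked 0 nuclei in each library, so the caller had not worked and doublets were kept. Sequences and gene positions come from GRCm39 with GENCODE M39, to which 54749 features (98.8%) matched.

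Alternatives covered the gene and mitochondrial limits, doublet scores, shared barcodes, thinning, scaling, the UMI minimum and cluster resolution. Leaving out cluster 7, or clusters 3 and 10, was added after the data were seen, as were the transmitter and region gene counts and the upstream windows with their motifs. One listed gene and one upstream window are not reported here.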

Additional observations from a re-analysis of the deposited data

Results flagged for a closer look

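Barcodes with under 500 detected genes enter no comparison above, and 3 members and the sum of all members were counted in them at higher levels in the knockout-labelled than in the wildtype-labelled library. There were 2969 such barcodes with 1661313 UMIs in the wildtype-labelled and 3904 with 2269610 UMIs in the knockout-labelled library. En1 stood at 23.8 CPM (17.9 to 31.0) against 9.03 CPM (5.05 to 14.9), and En2 at 26.9 CPM (20.6 to 34.5) against 10.8 CPM (6.42 to 17.1). Pax2 stood at 7.49 CPM (4.36 to 12.0) against 0.602 CPM (0.0152 to 3.35), from 17 UMIs and 1 UMI. All members together stood at 79.3 CPM (68.1 to 91.8) against 33.7 CPM (25.5 to 43.8). En1 and En2 gave 54 and 61 of the 180 knockout-labelled UMIs of that sum. The log2 ratios of Pax8 (−0.45), Fgf8 (−0.87) and Fgf17 (−0.45) were below 0, and their intervals, like those of Pax5, Cnpy1 and 2610027F03Rik, included 0.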

How the results depend on the processing

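Under 205 alternatives, 187 values stayed within their counting interval of the main value or within 1.5 times of a count, 18 moved further, and 0 ratios with a counting interval clear of 0 changed sign. The ratio of Fgf17, whose interval includes 0, went from −0.29 to 0.33 and 0.56 after thinning to 1000 and 2000 UMIs, and its ratio of shares from −0.08 to 0.65 and 0.56, and to 0.19 without the nuclei of highest doublet score. Among the member ratios, the range was widest for En2 (1.09 to 2.75). Thinning to 1000 UMIs gave log2 ratios of 2.75 for En2, 5.0 for Pax2 and 4.40 for 2610027F03Rik, and 2.72 and 4.35 for the shares of nuclei with En2 and Pax2. It gave 3.82 for the share with at least 2 members (2.58 in the main setting), co-detection of Cnpy1 and 2610027F03Rik of 0 and 16.4 times the product in the wildtype-labelled and knockout-labelled library (29.7 and 12.9), and progenitor-marked shares of Cnpy1 nuclei of 7.14% and 9.64% (20.0% and 37.7%). Thinning to 2000 UMIs gave 1.09 and 1.10 for the level and share of En2, and 2.02 for the share with at least 2 members. With a minimum of 200 genes the knockout-labelled co-detection was 19.1 times the product. The percentage of genes 2-fold higher was 0.367 with at least 100 UMIs and 5.88 with 1 UMI in each library, and of genes 2-fold lower 0.116 and 5.46. At Leiden resolution 2 no ratio could be had for 2610027F03Rik in the cluster matching cluster 8, since one library had 0 UMIs. No paired analysis was possible because each genotype has 1 library. Scaling by the median gene ratio, −0.01 on the log2 scale, raised each ratio by the size of that value. Fgf8 and Fgf17 had at most 20 UMIs in each library, and Pax2, Pax8 and 2610027F03Rik at most 20 in the wildtype-labelled one, which limits these ratios.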

Other observations

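The members did not spread in the same way between kept nuclei and the barcodes under 500 genes. The Engrailed genes were more abundant in the poor barcodes of both libraries: the log2 ratio of poor barcodes over kept nuclei was 1.58 (0.64 to 2.43) and 1.19 (0.73 to 1.62) for En1 in the wildtype-labelled and knockout-labelled library, and 1.87 (1.01 to 2.67) and 1.58 (1.13 to 2.0) for En2. In the knockout-labelled library Cnpy1 had −1.76 (−2.78 to −0.90) and 2610027F03Rik −3.06 (−4.94 to −1.69), so that both were scarcer in the poor barcodes, and Pax8 had −2.87 (−8.20 to −0.34). Pax2, with −0.69 (−1.50 to 0.01), and Pax5, with −0.47 (−1.09 to 0.10), had intervals that included 0. En1 and its neighbour 2610027F03Rik therefore lay on opposite sides in the same barcodes. The cause was not tested.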
